A study of Mus musculus with 12 samples.

Results

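The genes described here are the mouse genes for the linker histone H1 and for the core histones H2A, H2B, H3 and H4, taken by their symbols (H1f, H2ac, H2bc, H3c or H4c followed by a number). The rule found 73 of the 22924 genes listed, and all 73 were listed in both tissues. They comprise 11 H1, 18 H2A, 19 H2B, 12 H3 and 13 H4 genes. On GRCm39, 54 lay in the large histone cluster of chromosome 13, 10 in the cluster of chromosome 3 and 3 in that of chromosome 11. The other 6 (H1f0 and H1f7 on chromosome 15, H1f8, H1f10 and H4c16 on chromosome 6, H1f9 on chromosome 11) lay outside these clusters, so that "clustered" covers 67 of the 73.

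RNA was sequenced from lung and spleen of WT mice and of β3-/- mice, labelled ITGB3 KO, which carry a constitutive deletion of Itgb3, the gene of the integrin β3 subunit. There were 3 mice per genotype aged 8 to 10 weeks on a C57BL/6 background, the lungs and spleens came from the same animals, and each of the 4 groups had 3 libraries (12 in all). WT mice were bought and β3-/- mice were a gift, littermates are not mentioned, and the Y-linked genes Ddx3y and Eif2s3y were listed at 0 in all β3-/- libraries against 16.9 to 34.3 FPKM in the WT libraries, so that genotype, source of the mice and sex cannot be told apart. FPKM are fragment counts scaled to the length of the transcript and the size of the library. They are compared between libraries for each gene, and between genes as a level per length.

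Most core histone genes and the H1 genes of the clusters are transcribed in S phase, when new DNA has to be wrapped into nucleosomes. Their mRNAs have no introns and usually no poly(A) tail. They end instead in a conserved stem-loop, which the stem-loop binding protein holds and next to which the mRNA is cut. H1f0, H1f10 and a few core histone genes are polyadenylated and are also expressed in cells that do not divide. In the adult, spleen contains dividing lymphoid and, in mice, erythroid precursors, whereas most lung cells are at rest. The libraries were made with an mRNA kit. Whether it selected RNA with a poly(A) tail is not given in the sources used here, and whether the values of stem-loop genes reflect all of their transcripts or only those with a tail was not tested.

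Itgb3 was lower in the β3-/- libraries (1.29 to 1.94 FPKM against 3.68 to 4.39 in WT lung, 3.52 to 4.02 against 8.5 to 10.6 in WT spleen), but not at 0. Summed FPKM of 7 alveolar type 2 cell genes ranged over 16537 to 27757 in lung against 115 to 170 in spleen, and that of 11 B cell genes was 4758 to 7650 in spleen and 1261 to 1873 in lung, as the tissue labels say. In lung, 3 libraries stood apart. WT lung 3, β3-/- lung 1 and β3-/- lung 2 had 4.52 to 4.97 FPKM of the polyubiquitin gene Ubb, against 570 to 688 in WT lung 1, WT lung 2 and β3-/- lung 3. Since 19 of the 37 histone genes tested in lung followed this split, beside 4.61% of all genes tested, results in lung are given with and without it. In spleen, WT 2 and β3-/- 2 carried transcripts of 13 pancreatic enzyme genes (2340 and 243 FPKM in sum, against 18.3 to 27.3 in the other 4).

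The stem-loop could be read from the reference sequence. A 16-base pattern (GG, any 3 bases, TTTT, any base, AG, any 2 bases, CC) occurred on the coding strand within 150 bases after the stop codon of 61 of the 73 genes (83.6%). It occurred in 65 of 21656 protein-coding genes (0.3%), the other 4 being H2ax, H2bw2, H3f4 and Lrrc75b. By class the count was 6 of 11 H1, 17 of 18 H2A, 15 of 19 H2B, 11 of 12 H3 and 12 of 13 H4 genes. The 12 genes without a match were H1f0, H1f7, H1f8, H1f9, H1f10, H2ac22, H2bc21, H2bc22, H2bc23, H2bc24, H3c8 and H4c1. The sites below belong to genes whose values are given later, and capitals mark the 16 matching bases:
H1f2 (chr13:23923490-23923515, plus strand): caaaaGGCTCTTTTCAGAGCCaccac
H2ac19 (chr3:96147095-96147120, minus strand): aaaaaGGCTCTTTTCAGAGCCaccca
H2bc11 (chr13:22227803-22227828, plus strand): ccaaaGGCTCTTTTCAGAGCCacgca
H3c14 (chr3:96154638-96154663, plus strand): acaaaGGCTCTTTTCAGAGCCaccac
H4c9 (chr13:22225131-22225156, minus strand): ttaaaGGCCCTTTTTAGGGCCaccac
H4c17 (chr13:21996294-21996319, plus strand): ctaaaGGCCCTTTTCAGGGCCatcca
The loop started 22 to 59 bases after the stop codon. In 39 genes it read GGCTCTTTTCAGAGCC, among them 5 H1, 15 H2A, 11 H2B and 8 H3 genes. No H4 gene had that form. The H4 genes carried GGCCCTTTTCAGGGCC (8 genes), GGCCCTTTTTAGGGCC (2 genes) or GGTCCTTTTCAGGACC (2 genes), in which the bases that pair in the stem differ.

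The window of 250 bases before to 50 bases after the annotated start was searched on both strands for the TATA box in the form TATAAA, for the CCAAT box, and for the octamer read by POU domain factors, ATTTGCAT. TATAAA was found for 49.3% of the histone genes and 13.2% of protein-coding genes, CCAAT for 79.5% and 39.9%, and ATTTGCAT for 20.5% and 1.63%. The classes differed in these letters. CCAAT was present for 18 of 18 H2A and 18 of 19 H2B genes and for 4 of 13 H4 genes. The octamer was present for 7 H2A and 8 H2B genes and for no H1, H3 or H4 gene. These counts are not independent. Windows of neighbouring H2A and H2B genes on opposite strands can overlap, so that the same site counts for both. With the octamer, the windows of H2ac1, H2ac8, H2ac12, H2ac20 and H2ac25 overlap those of H2bc1, H2bc8, H2bc12, H2bc21 and H2bc26. The 250 bases before the start of genes with called or leading values are shown, from 5′ to 3′ on the gene's strand, with matches on either strand in capitals:
H2ac8 (chr13:23755395-23755644, minus strand): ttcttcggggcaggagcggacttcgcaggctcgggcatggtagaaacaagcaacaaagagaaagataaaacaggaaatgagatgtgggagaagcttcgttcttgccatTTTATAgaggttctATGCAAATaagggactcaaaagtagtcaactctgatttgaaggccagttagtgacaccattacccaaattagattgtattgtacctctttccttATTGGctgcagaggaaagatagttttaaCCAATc
H2bc11 (chr13:22227134-22227383, plus strand): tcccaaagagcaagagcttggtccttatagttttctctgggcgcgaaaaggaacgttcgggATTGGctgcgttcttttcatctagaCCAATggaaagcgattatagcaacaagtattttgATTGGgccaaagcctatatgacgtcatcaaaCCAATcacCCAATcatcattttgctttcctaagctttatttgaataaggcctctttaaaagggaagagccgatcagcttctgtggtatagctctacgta
H1f2 (chr13:23922541-23922790, plus strand): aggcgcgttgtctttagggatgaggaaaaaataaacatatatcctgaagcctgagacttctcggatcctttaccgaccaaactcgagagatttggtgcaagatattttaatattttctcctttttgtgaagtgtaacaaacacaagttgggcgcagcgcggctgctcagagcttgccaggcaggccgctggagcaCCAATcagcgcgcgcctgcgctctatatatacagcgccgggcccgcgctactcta
H4c9 (chr13:22225533-22225782, minus strand): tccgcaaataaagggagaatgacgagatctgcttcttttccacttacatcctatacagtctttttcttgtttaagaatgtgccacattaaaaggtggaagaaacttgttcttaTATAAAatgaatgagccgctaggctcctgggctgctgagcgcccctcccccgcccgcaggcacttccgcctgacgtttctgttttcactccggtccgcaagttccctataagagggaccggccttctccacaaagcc
The H2ac8 window held all 3 motifs, and that of H2bc11 held 5 CCAAT matches and neither of the others. That of H1f2 held 1 CCAAT match, and that of H4c9 held TATAAA alone. The H2ac8 window reaches into H2bc8, which lies on the opposite strand. The H2bc11 window overlaps the window searched for H2ac11. Which gene of such a pair a site serves was not tested.

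Near-identical copies limit what single genes can tell. Of all 50-base windows in a transcript model, a median of 47.0% was also found in another gene, 33 of the 73 genes shared at least 50% of their windows, and 4 shared all. H2bc23 and H2bc24 shared every window with each other. The models of 48 genes overlapped another annotated gene. The deposited values reach down to 1e-06 FPKM and are not multiples of 1 read. How reads that match several copies were divided is not given in the sources used here, and the depth of the libraries is unknown.

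A few genes held most of the histone signal. In lung, mean FPKM of H1f0 (100.3) and H1f2 (82.1) stood above H2bc4 (29.4), H2ac19 (15.5) and H2ac18 (14.7), and 59 of 73 genes were below 1 FPKM. In spleen, H1f2 (57.7) led H1f0 (27.1), H2bc4 (20.9), H2ac19 (16.6) and H4c9 (10.7), and 41 genes were below 1 FPKM. H1f0, the linker histone of resting and differentiated cells, and H1f2, a linker histone of the chromosome 13 cluster, together made up nearly all of the H1 sum. H3c14, which encodes the replication-coupled H3.2, was the highest H3 gene in lung (3.86) and H3c1, which encodes H3.1, the highest in spleen (2.24). H1f7, a spermatid linker histone, and H2ac1, the testis H2A, were listed at 0 in all 12 libraries, and the map of levels shows the same few bright rows in each class.

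**Figure D1:**
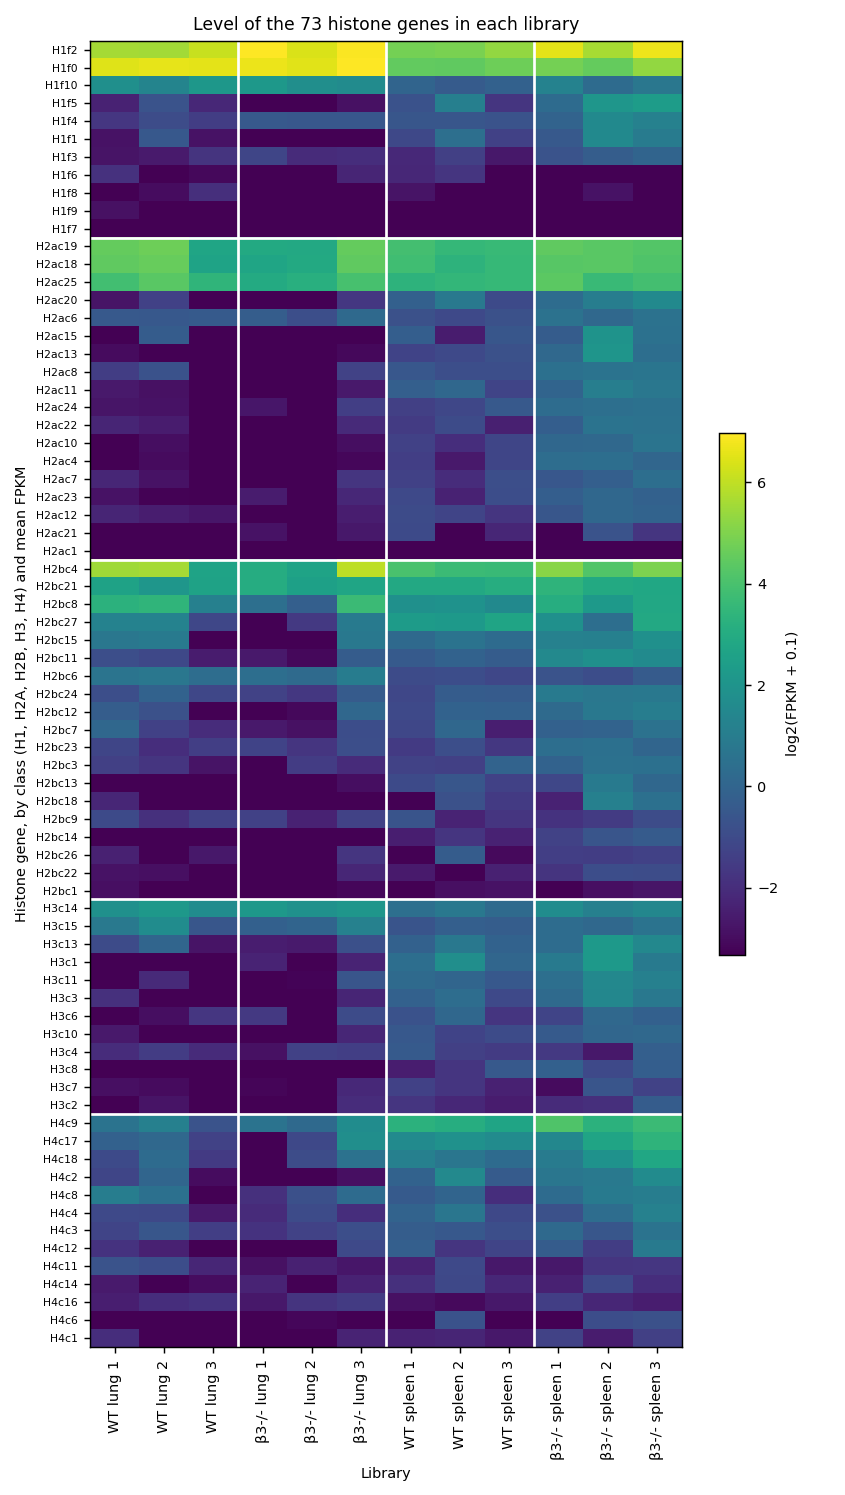
Colour gives log2(FPKM + 0.1) of the 73 histone genes (rows, by class and then by mean FPKM) in the 12 libraries (columns, white lines between groups). H1f2 and H1f0 are the brightest rows, many H2A, H2B, H3 and H4 rows are dark in WT lung 3, β3-/- lung 1 and β3-/- lung 2, and the β3-/- spleen columns are lighter than the WT spleen columns.

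The class sums followed 2 patterns, which the plot of summed FPKM by class shows. In spleen, all 3 β3-/- libraries exceeded all 3 WT libraries in every class. The H2A sum was 45.1, 38.1 and 41.1 FPKM in WT spleens and 74.4, 75.5 and 68.9 in β3-/- spleens. The H4 sum was 19.03, 21.02 and 12.8 in WT and 27.4, 26.3 and 41.8 in β3-/- spleens. The H3 sum was 8.11, 11.6 and 6.22 in WT and 11.7, 20.7 and 16.5 in β3-/- spleens, so that the closest libraries of the groups nearly met. Over all 73 genes the WT spleens were within 162.6 to 164.2 FPKM and the β3-/- spleens at 311.1, 257.5 and 354.0. In lung the H2A, H2B, H3 and H4 sums overlapped between genotypes and followed the level of Ubb. The H1 sum did not: it was 142.0, 148.7 and 169.0 FPKM in WT lungs and 232.7, 179.5 and 249.2 in β3-/- lungs. The erythroid sum in lung was 4830 to 7324 FPKM in WT and 10925 to 16427 in β3-/- mice, and that of 8 plasma cell genes 193.4 to 211.3 and 415.8 to 443.7. Their part in the H1 difference was not tested.

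**Figure D2:**
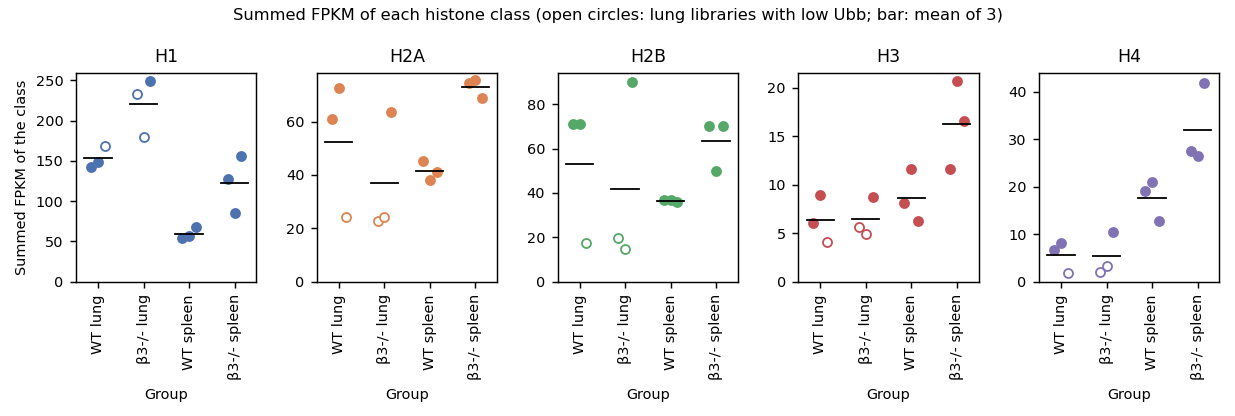
Each point is the summed FPKM of a histone class (panel) in a library, the bar is the mean of the 3 libraries of a group, and open circles are the lung libraries with low Ubb. In spleen the β3-/- points lie above the WT points in each class, and in lung the open circles are the lowest H2A, H2B, H3 and H4 points.

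In lung many histone genes followed the level of Ubb across the libraries. H2bc4, an H2B gene, had 46.1, 48.3 and 61.5 FPKM in the libraries with high Ubb (WT 1, WT 2 and β3-/- 3) and 6.20, 8.12 and 6.20 in those with low Ubb (WT 3, β3-/- 1 and β3-/- 2). H2bc8 had 9.73, 10.5 and 12.8 against 2.13, 1.26 and 0.771 FPKM. H2bc15 had 1.61, 1.81 and 1.67 FPKM in the former and was listed at 0 in the latter. For these H2B genes the 2 sets of libraries did not overlap, and each set held both genotypes. Likewise H2ac19, which encodes H2A type 2-A, had 23.0, 25.9 and 22.9 FPKM against 6.59, 7.50 and 7.35.

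Of the 37 histone genes tested in lung, 19 (51.4%) were higher in every library with high Ubb than in every library with low Ubb, beside 4.61% of all genes tested, and no histone gene had the reverse order. Other histone genes held their level. H1f0 had 89.5, 97.7 and 126 FPKM in the libraries with high Ubb and 95.1, 103 and 90.9 in those with low Ubb, and H3c14 had 3.48, 4.36 and 4.19 against 3.12, 4.38 and 3.65. H2bc21, an H2B gene without the stem-loop letters, had 6.03, 4.11 and 6.59 against 6.07, 8.22 and 5.71. These ranges overlapped.

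The size of the split went with the length of the transcript model. The 13 tested histone genes with a canonical model of up to 700 bases had a median difference in mean log2(FPKM + 0.1) of 2.04, high minus low, and 12 of them exceeded 1. The 12 of over 700 to 1500 bases had a median of 0.775, the 10 of over 1500 to 3000 bases 0.109 and the 2 longer ones -0.155. H2bc4 was an exception, with a model of 1707 bases and a difference of 2.91. Over the 37 genes Spearman's rho with length was -0.76, with the share of windows found in another gene 0.48, and with the longest sequence annotated after the stop codon -0.67. All 37 points come from the same 6 libraries, and the 3 measures go together. Among all genes tested in lung, a difference above 1 was also more frequent for short models: 8.15% of 552 genes of up to 700 bases, 2.3% of 1779, 1.04% of 4701 and 0.455% of 8568 in the longer classes, beside 92.3%, 33.3%, 10% and 0% of the histone genes. The medians of all genes were -0.0691, -0.065, -0.0584 and -0.0341 in the same order. What the split reflects was not tested.

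**Figure D3:**
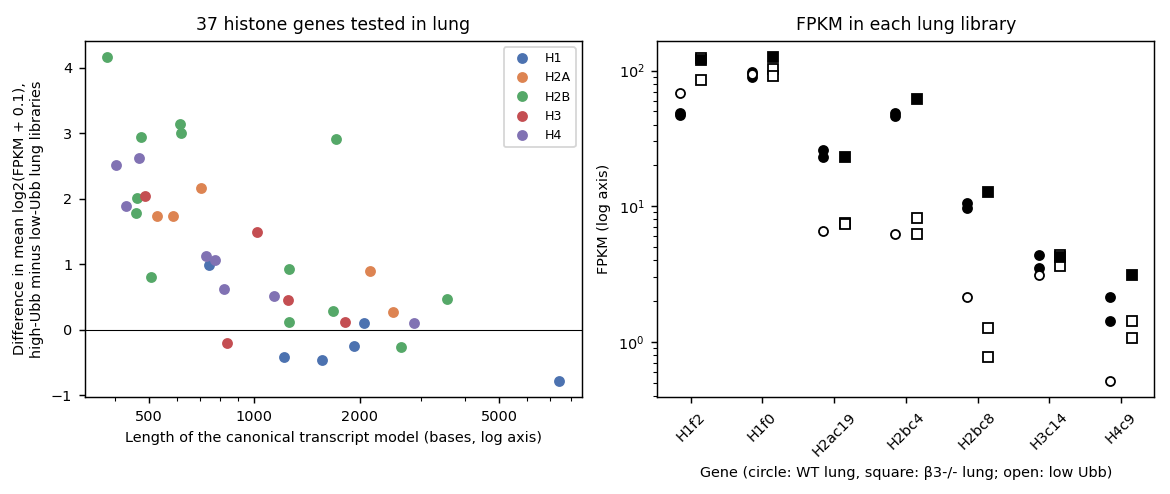
Left, the difference in mean log2(FPKM + 0.1) between lung libraries with high and low Ubb against the length of the canonical transcript model for the 37 tested histone genes; right, FPKM of 7 histone genes in each lung library. Short models lie up to 4.16 above 0, and H2bc4, H2bc8 and H2ac19 part by Ubb (filled against open symbols) while H1f0 and H3c14 do not.

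The comparison of β3-/- with WT lung, the tissue the study is about, called no histone gene at an adjusted p below 0.05 and an absolute log2 fold change above 1 (limma-trend with Benjamini-Hochberg adjustment over 15869 genes). Background calls were 0.284% higher and 0.0315% lower, and 36 histone genes were below the filter of 0.1 FPKM in 3 libraries. At an unadjusted p below 0.05 there were 2 higher (4.95% of all genes) and 2 lower (7.7% of all genes tested). The median log2 fold change of the 37 histone genes was -0.30, beside -0.02 for all genes tested, and it was 0.14 with the Ubb group as a term in the model.

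H1f2 had the lowest p. Its FPKM was 48.6, 46.9 and 68.9 in WT lungs and 125, 84.5 and 119 in β3-/- lungs. Every β3-/- lung was above every WT lung, and the order held among the libraries with high Ubb (48.6 and 46.9 against 119) as well as among those with low Ubb (68.9 against 125 and 84.5). The difference was 1.00 on the log2 scale (SE 0.20) and did not pass the test, with an adjusted p of 0.136. H1f4, another S-phase linker histone, had 0.209, 0.419 and 0.266 FPKM in WT and 0.631, 0.601 and 0.596 in β3-/- lungs (log2 fold change 0.87, SE 0.29, adjusted p = 0.3). H1f4 also did not overlap between genotypes. Without overlap, 2 of 37 histone genes were higher and 2 lower, beside 1089 higher and 2007 lower of all 15869 genes tested. In the opposite direction H4c11 had 0.514, 0.446 and 0.114 FPKM in WT and 0.037, 0.0924 and 0.0529 in β3-/- lungs (log2 fold change -1.39, SE 0.49, adjusted p = 0.321), at levels where all values are low. The linker histone H1f5 was lower too, also at low values (limma-trend, log2 fold change -1.44, SE 0.54, adjusted p = 0.35). It had 0.101, 0.519 and 0.12 FPKM in WT and 0, 0 and 0.0379 in β3-/- lungs. For the leading core histone genes the genotypes overlapped: the log2 fold change was -0.54 (SE 0.64) for H2ac19, -0.71 (SE 1.10) for H2bc4, 0.16 (SE 0.16) for H3c14 and 0.48 (SE 0.57) for H4c9, with adjusted p from 0.75 to 0.839. Those of H2ac19 and H2bc4 turned to 0.04 and 0.29 with the Ubb group as a term.

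In spleen the histone genes were higher in β3-/- mice. Of the 66 tested, 12 (18.2%) rose and 0 fell, beside 2.64% higher and 0.678% lower of all 15480 genes tested, with the same test and thresholds. The log2 fold change was above 0 for 62 of the 66 (93.9%, beside 33% of all genes), and 31 (47%) did not overlap between genotypes with β3-/- higher (11.4% of all genes). The median was 1.05, beside -0.16 for all genes. Of the 66 genes, 17 reached 0.1 FPKM in fewer than 3 WT spleens and so passed the filter partly through the β3-/- libraries. H1f3, H2ac4 and H2ac22 are called genes among these 17. Among the other 49 there were 9 calls, the log2 fold change was above 0 for 46, and the median was 0.97. At 1 FPKM or more there were 16, 22 and 14 of the 73 genes in the WT spleens and 34, 44 and 45 in the β3-/- spleens. In bulk tissue, more cells that express a gene and more RNA per cell cannot be told apart.

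Among the linker histones 2 of 7 tested rose. H1f2 had 28.5, 29.6 and 39.6 FPKM in WT spleens and 93.5, 49.97 and 104.8 in β3-/- spleens. The groups did not overlap, and the difference passed the test (1.29 on the log2 scale, SE 0.28, adjusted p = 0.0403). H1f3 rose from 0.125, 0.283 and 0.058 to 0.519, 0.714 and 0.908 FPKM (log2 fold change 1.74, SE 0.38, adjusted p = 0.0418). H1f0, the linker histone of resting cells, had 22.5, 22.1 and 26.3 FPKM in WT and 28.3, 23.5 and 39.9 in β3-/- spleens (0.34, SE 0.19, adjusted p = 0.233), and its groups overlapped.

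H2A genes made up 6 of the 12 calls, of 17 tested. H2ac8 rose from 0.589, 0.448 and 0.46 FPKM in WT to 1.28, 1.41 and 1.52 in β3-/- spleens (log2 fold change 1.33, SE 0.20, adjusted p = 0.0243). H2ac10 rose from 0.302, 0.154 and 0.348 to 0.983, 1.01 and 1.46 (1.79, SE 0.30, adjusted p = 0.0304). H2ac4 rose from 0.275, 0.062 and 0.349 to 1.18, 1.20 and 0.947 (2.00, SE 0.40, adjusted p = 0.036). All 3 are S-phase H2A genes of chromosome 13 that were low in each WT spleen. H2ac6 (log2 fold change 1.28, SE 0.22), H2ac22 (1.93, SE 0.42) and H2ac24 (1.42, SE 0.28) also rose. The more abundant H2ac19 had 14.8, 11.4 and 12.2 FPKM in WT and 21.9, 20.3 and 18.8 in β3-/- spleens, without overlap. The difference of 0.67 on the log2 scale (SE 0.12, adjusted p = 0.0331) was under the fold threshold.

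H2B genes gave 4 calls of 18 tested, with H2bc11 the lowest p of all histone genes. H2bc11 had 0.66, 0.838 and 0.699 FPKM in WT and 2.80, 3.48 and 2.91 in β3-/- spleens. The groups stood far apart (1.93 on the log2 scale, SE 0.18, adjusted p = 0.00385). H2bc24 rose from 0.357, 0.696 and 0.678 to 1.76, 1.61 and 1.66 FPKM (1.43, SE 0.26, adjusted p = 0.0317), and H2bc23, which shares its windows, also rose (1.68, SE 0.29, adjusted p = 0.0311). H2bc15 rose from 1.05, 1.43 and 1.13 to 2.22, 2.17 and 3.48 FPKM (1.04, SE 0.23, adjusted p = 0.0428). H2bc4, the most abundant, had 16.1, 12.9 and 12.5 FPKM in WT and 35.4, 18.2 and 30.5 in β3-/- spleens, and just missed the test (0.97, SE 0.24, adjusted p = 0.0504). H2bc21 had 7.35, 7.43 and 8.5 against 10.4, 7.55 and 6.88 FPKM, with overlap.

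No H3 or H4 gene passed both thresholds, of 12 tested in each class, and 6 H3 and 3 H4 genes were higher at an unadjusted p below 0.05 (limma-trend), beside 9.67% of all genes tested. H3c14 had 1.24, 1.66 and 1.07 FPKM in WT and 3.13, 2.15 and 2.61 in β3-/- spleens, and passed the adjusted p alone (log2 fold change 0.95, SE 0.22, adjusted p = 0.0459). H4c9 had 9.66, 8.46 and 6.36 FPKM in WT and 17.3, 9.60 and 13.01 in β3-/- spleens. β3-/- 2 was close to WT 1, and the log2 fold change was 0.68 (SE 0.24, adjusted p = 0.0927). The class medians were 1.35 for H1, 1.31 for H2A, 1.08 for H2B, 0.80 for H3 and 0.70 for H4, and whether the classes differ was not tested.

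**Figure D4:**
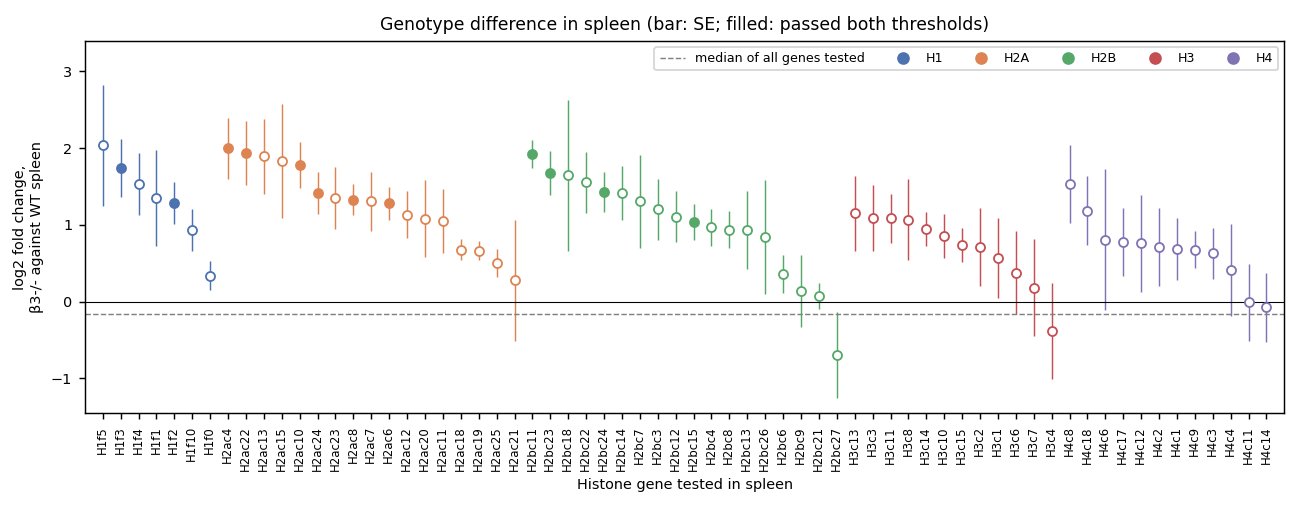
Points are the log2 fold change, β3-/- against WT spleen, of the 66 tested histone genes by class, bars are the SE of limma, and filled points passed both thresholds. Points lie above 0 for 62 genes, the 12 filled points are H1, H2A and H2B genes, and the dashed line is the median of all genes tested (-0.16).

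The calls went across the kinds of gene. They comprised 3 of 9 tested genes without a stem-loop, 3 of 20 with a stem-loop and over 200 annotated bases after the stop codon, and 6 of 37 with a stem-loop and a shorter end. In the last group the log2 fold change was above 0 for all 37. All 12 calls lay in the chromosome 13 cluster (51 tested), none among 10 tested genes of the chromosome 3 cluster, whose median was 0.71. H2ac18, H2ac19 and H3c14 of the chromosome 3 cluster were higher by the adjusted p but under the fold threshold. Of the 12, 8 shared at least 50% of their windows with another gene, as did 33 of the 66 tested. H1f2, H1f3, H2ac6 and H2ac8 are the 4 called genes below that.

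How many genes were called depended on each of the libraries. Leaving out 1 library gave 1 to 16 calls, with 1 call without WT spleen 3 or β3-/- spleen 3, 2 without WT spleen 2 or β3-/- spleen 1, and 4 without WT spleen 1. The 16 calls came without β3-/- spleen 2. Without both spleens that carried pancreas transcripts there were 0 calls, and with a pseudocount of 1 there were 2, while the median log2 fold change stayed between 0.55 and 1.26 over the settings tried. H2bc11 was called with any 1 library left out (log2 fold change 1.83 to 2.02), but not without both spleens with pancreas transcripts (1.92, adjusted p = 0.0548).

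Genes that work beside the histones were counted in the same way. None of 35 DNA replication genes, of 9 replacement histone genes and of 19 histone chaperone genes rose past both thresholds, with medians of 0.18, 0.15 and -0.14 (limma-trend; 5, 2 and 1 were higher at an unadjusted p below 0.05, a share that was 9.67% over all genes). H2ax, the replacement H2A that also ends in a stem-loop, was the closest (0.82, SE 0.21, adjusted p = 0.0508). Of 15 genes for histone mRNA processing none rose, and Ncbp1, a cap-binding protein, and Mif4gd, a partner of the stem-loop binding protein, were lower without reaching the fold threshold (-0.44, adjusted p = 0.0441, and -0.60, adjusted p = 0.047), where 5.39% of all genes were lower at adjusted p below 0.05 with no fold threshold. Of 20 genes of G2 and mitosis 5 rose (Nusap1, Mki67, Birc5, Ccnb2 and Aurka, median of the list 0.95). The share of all genes called higher was 2.64%. Of 16 erythroid genes 14 rose with a median of 3.18, among them Alas2, the haem synthesis enzyme of red cell precursors (2.94, SE 0.52, adjusted p = 0.0312).

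Summed FPKM of the erythroid genes was 7438 to 30053 in WT and 63427 to 124529 in β3-/- spleens, and that of the G2 and mitosis genes 174.8 to 242.8 and 337.1 to 675.9. Of the neutrophil genes 3 of 9 rose and of the plasma cell genes 3 of 8, beside 2.64% of all genes. By limma-trend, 5 of 11 B cell genes were lower at adjusted p below 0.05 without reaching the fold threshold. With no fold threshold this share was 5.39% of all genes. The part of these cell types in the histone difference was not tested. Across β3-/- spleens 1, 2 and 3, the erythroid sum was 124529, 63427 and 99895 FPKM and Mki67 48.6, 23.4 and 23.6. The summed histone FPKM, H1f2 and H2bc4, like the erythroid sum, were lowest in spleen 2. Without H1f0 and H1f2 the histone sum was 189.3, 184.0 and 209.2 FPKM. The H1, H2B and H4 sums were lowest in spleen 2, whereas the H2A and H3 sums were highest in it (75.5 and 20.7 FPKM). Counted by gene, of 69 histone genes above 0 in any β3-/- spleen, 13 were highest in spleen 1, 25 in spleen 2 and 31 in spleen 3. H4 genes were mostly highest in spleen 3 (9 of 13) and H2A genes in spleen 2 (9 of 17).

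Whether the genotype difference itself differed between spleen and lung was tested as an interaction over 16312 genes. Genes entered by passing the filter in either tissue. Of the histone genes, 37 passed it in lung and 66 in spleen, so many entered through spleen alone. For genes near 0 in every lung, the value largely repeats the difference in spleen. No histone gene of 67 passed both thresholds, beside 0.147% higher and 0.147% lower of all genes. The median was 1.14, beside -0.12 for all genes, and 19 histone genes had an unadjusted p below 0.05 with the larger value in spleen (6.3% of all genes), and none with the larger value in lung (12.8% of all genes). H2ac10 (1.78, SE 0.41, adjusted p = 0.0724), H2ac4 (2.04, SE 0.50, adjusted p = 0.0786) and H2ac12 (1.70, SE 0.47, adjusted p = 0.101) came closest. All 3 had at most 0.112 FPKM in any lung. With sample weights 2 histone genes passed. The median was 0.72 without the lungs with low Ubb, 0.75 with the Ubb group as a term and 0.53 with a pseudocount of 1. For H1f2 the difference between the tissues was 0.29 (SE 0.38, adjusted p = 0.716), and a p of this size does not show that the tissues respond alike.

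Between the tissues, WT spleen against WT lung, 20 of 57 tested histone genes were higher (35.1%, beside 19.2% of all genes) and 4 lower (7.02%, beside 23.1%). With a pseudocount of 1 there were 4 higher, and with a filter at 1 FPKM 4 higher among 16 tested, with a median of -0.37 in place of 1.07. A gene low in lung could pass the filter of 0.1 FPKM through its spleen libraries alone. H3c1 and H2bc13, at 0 in all 3 WT lungs, did so. So did H2ac10, H2ac11, H2ac13, H2ac24, H3c10 and H4c14, below 0.1 FPKM in each WT lung. Such genes could only be called higher in spleen, which limits the comparison with all genes. The called genes H2ac7, H2ac12, H2ac20, H2bc11, H3c3, H3c6, H3c11 and H4c12 reached 0.1 FPKM in only some WT lungs. They passed the filter partly through spleen. The genes called higher were S-phase core histone genes. H3c1 was listed at 0 in all 3 WT lungs and had 1.23, 3.31 and 0.943 FPKM in WT spleens (adjusted p = 0.000154). H4c9 had 1.42, 2.15 and 0.516 FPKM in WT lungs and 9.66, 8.46 and 6.36 in WT spleens (log2 fold change 2.67, SE 0.46, adjusted p = 0.00138). H2ac11, H2ac13, H2ac20, H2ac24, H2bc13, H3c3, H3c10, H3c11 and H4c17 were higher by 1.96 to 2.85 on the log2 scale.

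Lower in WT spleen were 4 genes. H1f0 had 89.5, 97.7 and 95.1 FPKM in WT lungs and 22.5, 22.1 and 26.3 in WT spleens (log2 fold change -1.99, SE 0.08, adjusted p = 1.42e-06). H1f10, another linker histone outside the clusters, had 3.36, 2.40 and 4.26 against 0.886, 0.669 and 0.824 FPKM (-1.91, SE 0.25, adjusted p = 0.000329). H2bc6 (-1.59) and H3c14 (-1.41) were lower too. None of these groups overlapped. Of 30 tested genes with a stem-loop and a short end, 16 were higher in WT spleen and 0 lower (beside 19.2% and 23.1% of all genes). Among these 16, only H4c17 and H4c18 reached 0.1 FPKM in all 3 WT lungs. The others passed the filter partly or wholly through their spleen libraries, which limits the comparison with all genes.

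In β3-/- mice 43 of 63 tested histone genes were higher in spleen than in lung (beside 17.2% of all genes) and 3 lower (beside 23.4%). Of the 20 genes higher in WT, 18 were also higher in β3-/- (90% of the WT and 41.9% of the β3-/- calls), and H1f0, H1f10 and H2bc6 were lower in both. H1f5, an S-phase linker histone, had 0, 0 and 0.0379 FPKM in β3-/- lungs and 1.13, 4.21 and 5.02 in β3-/- spleens (log2 fold change 4.75, SE 0.53, adjusted p = 0.000142). H4c2 had 0, 0 and 0.0344 against 1.54, 1.69 and 3.02 FPKM (4.25, SE 0.32, adjusted p = 1.88e-05). These 2 genes were at or near 0 in all 3 β3-/- lungs and so passed the filter through their spleen libraries. They were not the only ones. The called genes H1f1 and H2ac15 were at 0 in all 3 β3-/- lungs, and H2ac4, H2ac10, H2ac11 and H2ac13 below 0.1 FPKM in each. Others, such as H2ac20, H2bc11 and H3c3, reached 0.1 FPKM in only some of these lungs. The comparison with the share of all genes is limited here too. The comparison holds 2 lungs with low Ubb, and without them 24 genes were called higher and the median log2 fold change fell from 2.27 to 1.16. In WT, where 1 lung had low Ubb, the counts without it were 15 higher and 7 lower, with a median of 0.67 in place of 1.07.

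**Figure D5:**
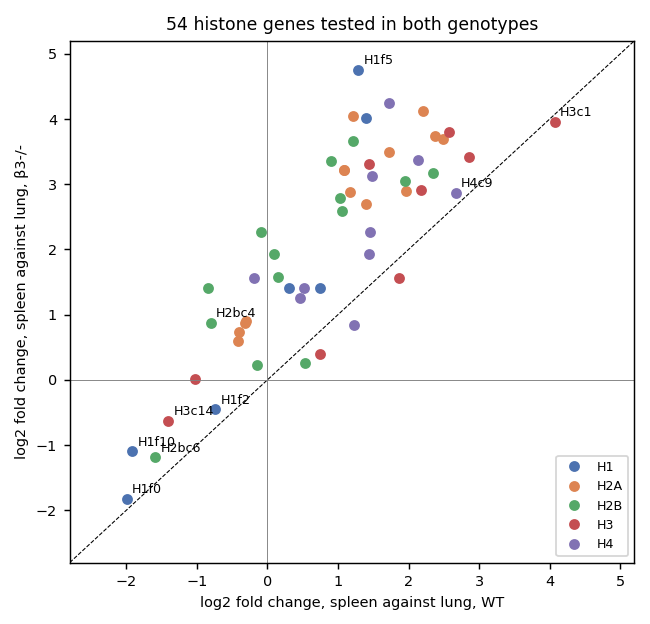
Each of 54 histone genes tested in both genotypes is placed by its log2 fold change, spleen against lung, in WT (horizontal) and in β3-/- mice (vertical), and the dashed line marks equal values. H1f0, H1f10 and H2bc6 are below 0 on both axes, and 49 of the 54 points lie above the dashed line.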

How the data were processed

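Lung and spleen libraries of 3 WT and 3 β3-/- mice were read as FPKM per gene, 1 table per library. Per the labels and the methods of the study, the authors used Trimmomatic for trimming, HISAT2 for alignment (genome build GRCm39) and featureCounts for counting (versions not given in the sources used here). The deposited FPKM have no stated tool, no counts and no depth, so intervals from counting error cannot be given. The labels name a column RNA kit and the SMARTER mRNA-Seq library kit, and the methods name TRIzol. Whether poly(A) RNA was selected is not given in the sources used here.

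Values were tested as log2(FPKM + 0.1) with limma 3.58.1 (limma-trend, R 4.3.3) over all genes with at least 0.1 FPKM in 3 of the libraries fitted. For the interaction, 3 libraries of either tissue had to reach this level. P-values were adjusted by Benjamini-Hochberg over all genes tested, and a gene was called at adjusted p below 0.05 and an absolute log2 fold change above 1, the thresholds of the study. Fold changes are on the log2(FPKM + 0.1) scale, which understates the change of low genes. The test was checked on simulated data. With 3 against 3, a permutation test cannot go below p = 0.1 and was not used. Replicates are separate mice. Lung and spleen were taken from the same mice, and titles give both organs of a mouse the same number. Deviations of same-numbered lung and spleen from their group means correlated at 0.0023 to 0.11 in WT and 0.099 to 0.16 in β3-/- mice. Those of differently numbered lung and spleen correlated at -0.12 to 0.086 in WT and -0.11 to 0.02 in β3-/- mice. The tissue comparisons and the interaction were fitted without a block, as planned, and again with the mouse as a block.

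Named histone genes are the called ones (up to 12 per comparison by fold), the highest mean of each class, and the 3 lowest p in the genotype comparisons and the interaction. Of the other lists, the called genes or the 3 lowest p were eligible. H1f0, H1f10, H2bc8, H2bc21 and others beyond this were picked with their values in view. The histone genes and all lists were chosen with earlier results of these data known. Sequences were read from GRCm39 with GENCODE vM39. A list of RNAs without poly(A) tail was not analysed here. The alternatives tried were other pseudocounts, filters, scalings and weights, a replicate block, and left-out libraries. The terms and exclusions by Ubb in the other comparisons were added after seeing the data.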

Additional observations from a re-analysis of the deposited data

How the results depend on the processing

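The 79 results were recomputed under 1376 alternatives in all. Of these, 1196 kept the direction and the side of the threshold or, for counts and medians, stayed near the value reported. In lung the median log2 fold change of the histone genes was 0.14 with the Ubb group as a term and 0.15 without the libraries with low Ubb (added after seeing the data), and ran from -0.74 to -0.018 with 1 library left out. In spleen 12 calls became 2 with a pseudocount of 1 (median 0.55), 5 without a filter, 5 with limma without trend, and 0 without the spleens with pancreas transcripts, and 1 to 16 with 1 library left out (median 0.82 to 1.26). No spleen result turned direction. In the interaction, 0 calls became 2 with sample weights (median 1.32) and 0 to 1 with 1 library left out (median 0.96 to 1.47). The median was 0.53 with a pseudocount of 1, 1.43 with a pseudocount of 0.01, 0.72 without the lungs with low Ubb and 0.75 with the Ubb group as a term.

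For spleen against lung in WT, a pseudocount of 1 gave 4 genes higher (median 0.27) and a filter at 1 FPKM 4 higher among 16 tested (median -0.37). The median was 1.83 with a pseudocount of 0.01 and 1.29 after rescaling to TPM. Leaving out 1 library gave 15 to 22 higher, 4 to 7 lower and medians of 0.67 to 1.28. Without the lung with low Ubb 7 were lower and the median was 0.67. In β3-/- mice a pseudocount of 1 gave 23 higher and 1 lower (median 0.81), a filter at 1 FPKM 19 higher among 32 tested (median 2.83), and leaving out the lungs with low Ubb 24 higher (median 1.16). The median was 3.87 with a pseudocount of 0.01, 1.93 without a filter and 2.65 after rescaling to TPM. Leaving out 1 library gave 33 to 49 higher, 2 to 3 lower and medians of 2.01 to 2.69. With fewer genes tested the counts fall by construction. Otherwise the cause was not tested. Rescaling to TPM moved the median of all genes from -0.16 to -0.37 in spleen, from -0.12 to -0.25 in the interaction and from -0.01 to -0.27 in β3-/- mice between tissues.

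Single genes reversed as follows. In lung, H2ac19 was 0.042 and H2bc4 0.29 with the Ubb group as a term, H2bc4 was 0.38 without the libraries with low Ubb, and H2ac19 was 0.17 and H2bc4 0.19 without those with high Ubb. H4c9 ran from -0.054 to 0.88 in lung and from -0.20 to 0.73 in the interaction with 1 library left out, where it also was -0.12 without the lungs with low Ubb and -0.28 with the Ubb group as a term. H1f2 was -0.030 in the interaction without the lungs with low Ubb. Between tissues, H2ac19 ran from -0.93 to 0.047 in WT with 1 library left out, and without the lungs with low Ubb H2ac19 was -0.18 and H2bc4 -1.19 in β3-/- mice. None of these genes was called in either fit.

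With the mouse as a block, 25 histone genes were higher and 4 lower in WT spleen against lung, 44 higher and 3 lower in β3-/- mice, and 0 were called in the interaction. The block changed no call of a named gene in these comparisons. WT and β3-/- samples share only a number. With that number as a block, 19 histone genes were called in spleen. The correlation of same-numbered samples was 0.098 to 0.44 in spleen and -0.086 to 0.18 in lung. That of differently numbered samples was -0.44 to 0.18 in spleen and -0.19 to 0.15 in lung.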
